A study of Mus musculus with 24 samples.

Results

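Stc1, Stc2, Cyp17a1, Cyb5a, Insl3, Ptch1, Gli1 and Hhip are genes of theca androgen synthesis, of the stanniocalcin hormones and of the hedgehog pathway, and their transcripts were followed here in the ovary. They were listed by symbol, and every probe set annotated to one of these symbols was taken, which gave 13 probe sets of 8 genes among 22626 probe sets that are not array controls. All of these genes but Insl3 are among the 12393 genes with a probe set of their own. Ovaries of virgin females of FL1, a mouse line selected to generation 130 on an index of litter size and litter weight at birth, were compared with those of DUKsi, the unselected control line. Both lines stem from the same founders (4 inbred and 4 outbred lines), and all females were 6 to 9 weeks old and in metestrus, the stage of the cycle after ovulation. Ovaries of 30 animals per line were combined into 6 pools, with 6 animals per pool by the sample labels and 5 by the methods, and the RNA of each pool was hybridized to 2 MOE 430A arrays. Each line is a single breeding population, and about 36 generations of sibling mating lay behind DUKsi, so selection, drift and inbreeding cannot be told apart in the line difference.

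Theca cells surround the growing ovarian follicle and make androgens, which the granulosa cells inside the follicle turn into estrogens. Granulosa cells also release hedgehog ligands; these bind the receptor Ptch1 on theca and stroma cells, free Smo and activate the Gli transcription factors, which in turn switch on Ptch1, Gli1 and Hhip. Ptch1 and Hhip restrain the signal, whereas stanniocalcins are secreted glycoproteins that, among other actions, block the protease Pappa, which frees insulin-like growth factors from a binding protein.

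Transcript abundance is given as the MAS5 signal, a linear intensity without unit that was scaled on each array to a trimmed mean of 500.1. A fold change is the difference of the log2 signals, FL1 minus DUKsi, estimated with limma over the 12 pools. A probe set is said to have risen or fallen where its p, adjusted by the Benjamini-Hochberg method over all 22626 probe sets, was under 0.01. The pools held different animals, but each pool averages over its animals, so the p values measure the spread between pools. Signals of different probe sets are on different scales and are not set against each other; sums over a gene list, given as ranges, weight the probe sets of high signal most.

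RNA integrity differed between the lines as judged by the 3' to 5' signal ratio of beta-actin. This ratio had a mean of 1.67 ± 0.423 over the FL1 pools against 1.27 ± 0.0522 over the DUKsi pools (SD, n = 6), with every FL1 pool above every DUKsi pool (two-sided exact permutation p = 0.00216, the smallest that 6 against 6 pools can give). The same ratio of Gapdh was 1.53 ± 0.420 and 1.28 ± 0.146 (exact permutation p = 0.203). Since the actin ratio did not overlap between the lines, its share of any line difference cannot be told apart from that of the line. By correlation with the pools of its own line, FL1 pool 3 stood lowest (mean r 0.947, against 0.959 to 0.974 for the other pools), and among the DUKsi pools this was pool 4 (0.967), which also held the highest signal of the oviduct marker Ovgp1, 3462. Without these pools Stc1 had a log2 fold change of -0.94 and again passed the test (limma adjusted p = 0.00101), and no other member did.

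Of the 13 member probe sets, 1 passed this test, and it fell in FL1, whereas 1.55% of all probe sets fell, 1.83% rose and 3.38% did either. That probe set belongs to Stc1. It was also the only member probe set at an adjusted p under 0.05, where 6.91% of all probe sets lay. The same probe set met the stricter rule that also asks for a ratio of at least 1.5 between the mean signals, which held for 1.07% of all probe sets in the direction lower in FL1 and for 2.32% in either direction. It was also the only member whose pools did not overlap between the lines, a property of 2.39% of all probe sets in this direction and of 4.62% in either direction. At an unadjusted p under 0.05 there were 5 member probe sets against 19.8% of all. The fitted value was below 0 for 12 of 13 member probe sets and for 61.7% of all probe sets. The median fold change was -0.25 over the members and -0.07 over all probe sets on the log2 scale. The latter became 0.02 when each array was scaled to the same median and -0.02 after quantile normalization.

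**Figure D1:**
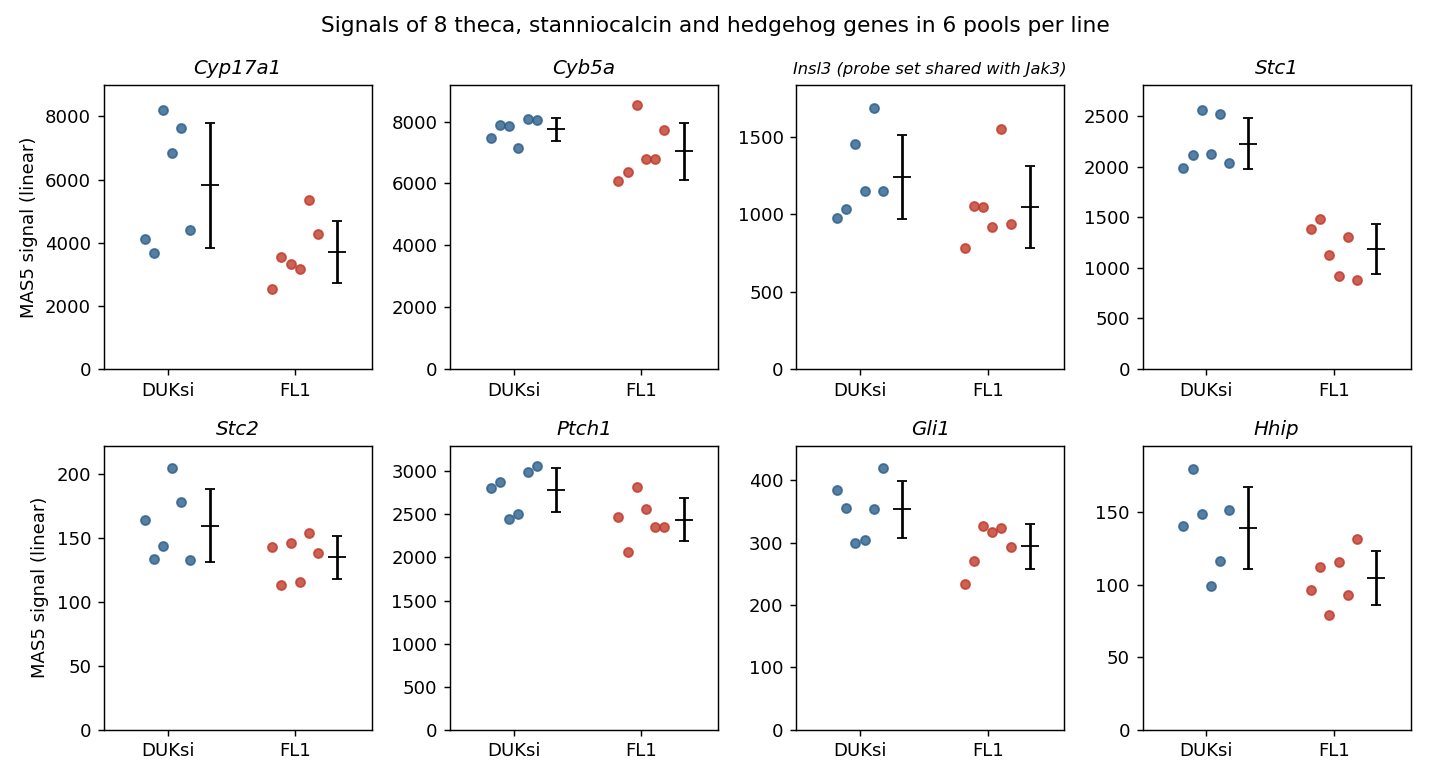
MAS5 signal (linear scale) of the brightest probe set of each of the 8 genes in 6 DUKsi pools (blue) and 6 FL1 pools (red); each point is a pool, and bars give the mean ± SD. Stc1 is the gene whose lines do not overlap, with 881 to 1480 in FL1 and 1991 to 2568 in DUKsi, whereas the other 7 genes overlap.

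Stc1 encodes stanniocalcin 1, a secreted glycoprotein hormone that theca and interstitial cells of the ovary are known to make. The Stc1 signal of probe set 1450448_at ranged from 881 to 1480 with a median of 1219 in the FL1 pools, and from 1991 to 2568 with a median of 2125 in the DUKsi pools. The highest FL1 pool lay below the lowest DUKsi pool, so that FL1 was lower in 36 of 36 pairs of pools. The mean signal was 1184 ± 248 (SD, n = 6) in FL1 and 2229 ± 253 (SD, n = 6) in DUKsi. Stc1 thus fell to 53.1% of the control level, with a 95% confidence interval from the fit of 0.436 to 0.629 for the ratio. The log2 fold change was -0.93 (SE 0.124) with a limma adjusted p of 0.000179. The study itself discusses Stc1 among the genes that differed on these same arrays, so the fall seen here is not independent evidence. Its text gives no probe set and no direction for Stc1.

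The second Stc1 probe set, 1421984_at, comes from the same sequence record and was dim. Its signals ran from 31.0 to 120 in FL1 (median 72.9) and from 47.4 to 135 in DUKsi (median 109). These ranges overlapped widely. Its log2 fold change of -0.48 (SE 0.320, 95% confidence interval -1.16 to 0.20) did not pass the test, with a limma adjusted p of 0.441. The fold changes of the Stc1 probe sets differed by -0.45, with p = 0.294 in a two-sided exact permutation test over the pools and an adjusted p of 0.736 over 5 such pairs of probe sets. For this dim probe set the first array of each pool alone gave 0.33, which turned its direction, and the second array alone gave -1.07 (limma adjusted p = 0.0512). With the actin ratio as a covariate it was -0.95 (limma adjusted p = 0.0972).

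Stc2 encodes the related hormone stanniocalcin 2. In probe set 1449484_at the FL1 pools lay between 113 and 154 (median 141) and the DUKsi pools between 133 and 205 (median 154). The lines overlapped, and the mean was 135 ± 16.8 in FL1 against 160 ± 28.6 in DUKsi (SD, n = 6). The log2 fold change was -0.23 (SE 0.148, 95% confidence interval -0.55 to 0.08), with a limma adjusted p of 0.416. Probe set 1419503_at ranged from 119 to 148 in FL1 and from 77.8 to 174 in DUKsi, with a log2 fold change of -0.11 and an adjusted p of 0.798. Here all FL1 pools lay within the DUKsi range. The difference between the line effects of Stc1 and Stc2, on the brightest probe set of each, was -0.70 on the log2 scale (two-sided exact permutation p = 0.00866, adjusted p = 0.0693 over 8 pairs of genes). This did not pass 0.05 after adjustment, and it did when a constant was added before log2 or when FL1 pool 2 was left out, with an adjusted p of 0.0346 in both cases.

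Cyp17a1 encodes the enzyme of theca cells that turns progestins into androgens. The Cyp17a1 signals of the FL1 pools ranged from 2534 to 5365 with a median of 3434, and those of the DUKsi pools from 3673 to 8205 with a median of 5633. The lines overlapped in part, since 4 FL1 pools lay below the lowest DUKsi pool and 3 DUKsi pools above the highest FL1 pool. FL1 was lower in 31 of 36 pairs of pools. The mean was 3703 ± 993 in FL1 against 5816 ± 1978 in DUKsi (SD, n = 6). The log2 fold change of -0.62 (SE 0.211, 95% confidence interval -1.07 to -0.17) was the largest of the members after Stc1, but its limma adjusted p was 0.0985. Over the other settings tried, apart from those that leave out a pool, that p ran from 0.0103 to 0.235. The 0.0103 came from the fit that takes all 24 arrays as observations, although only the pools hold different animals. The next lowest was 0.0453, with the pool number as a block.

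The spread of Cyp17a1 lay between pools rather than between arrays. The SD of its log2 signals was 0.374 over the FL1 pools and 0.505 over the DUKsi pools, whereas the arrays of one pool differed by an SD of 0.0840. In DUKsi the pools fell apart into 3 from 3673 to 4417 and 3 from 6849 to 8205, and no label names a difference between these pools.

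Cyb5a encodes cytochrome b5, the electron carrier that aids the lyase step of Cyp17a1. Its FL1 pools ranged from 6087 to 8544 (median 6781) and its DUKsi pools from 7136 to 8093 (median 7869). The lines overlapped, with the highest value of all in an FL1 pool. The mean was 7046 ± 920 in FL1 against 7747 ± 371 in DUKsi (SD, n = 6), and the log2 fold change was -0.15 (SE 0.0784, limma adjusted p = 0.329). With the log2 actin ratio as a covariate, Cyb5a had a log2 fold change of -0.33 and passed the test (limma adjusted p = 0.00599), while Stc1 had -0.77 and still passed (adjusted p = 0.00407). Cyb5a had r = 0.95 with the actin ratio in FL1 (exact permutation p = 0.00556, adjusted p = 0.144 over 26 relations) and r = 0.07 in DUKsi. Stc1 (1450448_at) had r = -0.53 and rho = -0.83 with the actin ratio in FL1, and r = 0.48 and rho = 0.60 in DUKsi. None of these Stc1 relations passed the correction (adjusted exact permutation p from 0.758 to 0.809). Without the 2 pools farthest from the median actin ratio, its r was -0.95 in FL1 and -0.45 in DUKsi. The covariate fit uses 1 slope for both lines, whose actin ratios do not overlap. The Cyb5a call and the Stc1 value from this fit thus depend on that slope.

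Insl3 encodes insulin-like peptide 3, a hormone of theca cells and of Leydig cells of the testis. Its probe sets are annotated to Insl3 and Jak3 together, genes that overlap at their ends, so the transcripts cannot be told apart by the annotation, although the sequence record of the brighter probe set is that of Insl3. Probe set 1423021_s_at ranged from 778 to 1552 in FL1 (median 990) and from 978 to 1686 in DUKsi (median 1149). The lines overlapped, and FL1 pool 5 stood above the other FL1 pools. The mean was 1047 ± 267 in FL1 against 1241 ± 273 in DUKsi (SD, n = 6), with a log2 fold change of -0.25 (SE 0.156, 95% confidence interval -0.58 to 0.08) and a limma adjusted p of 0.401. The second probe set, 1427092_at, had mean signals of 14.2 in FL1 and 11.2 in DUKsi, below the level of 48.6 under which the lowest 20% of all signals lie. At this level its ratio between the lines is not read.

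The theca androgen gene and the theca peptide gene varied together from pool to pool. After the mean of each line was removed, Cyp17a1 and Insl3 were correlated over the 12 pools with Pearson's r = 0.83 (permutation p = 0.00114, adjusted p = 0.00912 over 8 pairs) and Spearman's rho = 0.88 (permutation p = 0.00074, adjusted p = 0.00592). Within the lines r was 0.86 in FL1 (exact permutation p = 0.0347) and 0.84 in DUKsi (exact permutation p = 0.0222). Without the 2 pools farthest from the median of Cyp17a1, r was 0.75. The relation missed the threshold of 0.05 without FL1 pool 5, where r was 0.80 with an adjusted permutation p of 0.0718, and with the second array of each pool alone (r = 0.72, adjusted permutation p = 0.117). The pools share animals, dissection and arrays in both genes, and the labels name no difference between pools. The paper gives the mean size of the litters of origin for each pool, and its part in this relation was not tested. Cyp17a1 and Cyb5a were not so related (r = 0.13, rho = 0.18, adjusted permutation p = 0.802 and 0.875), nor were Cyp17a1 and Stc1 over all pools (r = 0.24, rho = 0.27, adjusted permutation p = 0.802 and 0.875). Within the lines, Cyp17a1 and Stc1 had r = 0.84 in DUKsi (rho = 0.83, exact permutation p = 0.0361) and r = -0.12 in FL1 (rho = -0.14, exact permutation p = 0.796), and the difference between the lines was not tested.

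**Figure D2:**
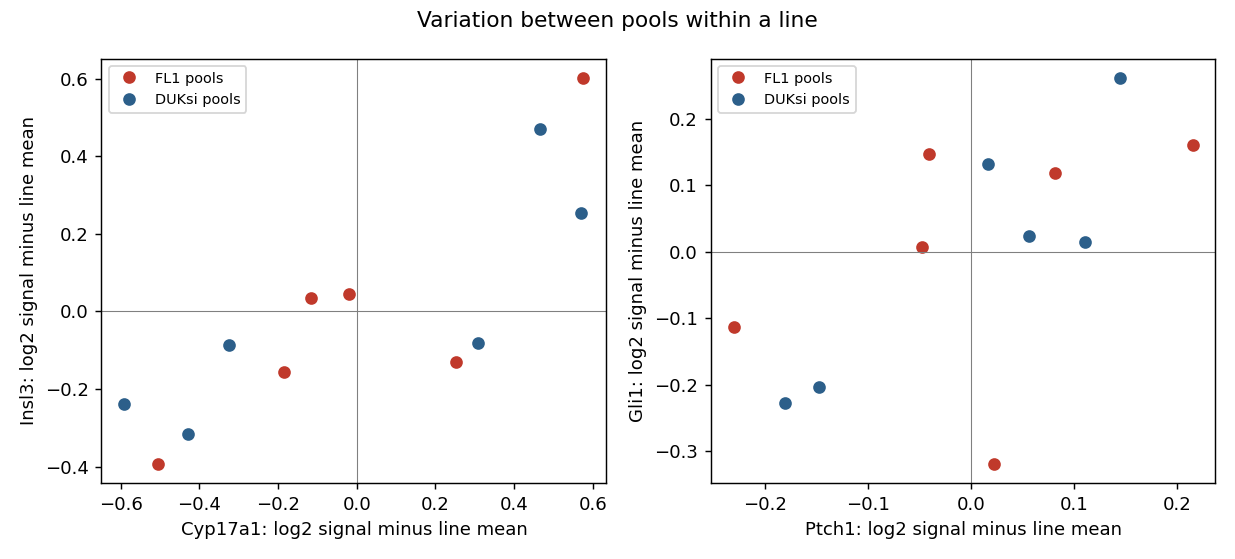
Log2 signal minus the mean of its line for Insl3 against Cyp17a1 (left) and Gli1 against Ptch1 (right); each point is a pool of FL1 (red) or DUKsi (blue), 12 in all. The points of the left panel rise from lower left to upper right in both lines (r = 0.83), and those of the right panel do so in DUKsi more than in FL1 (r = 0.89 and 0.41).

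Ptch1 encodes the receptor that binds hedgehog ligands and is itself a target of the pathway. Probe set 1428853_at ranged from 2068 to 2818 in FL1 (median 2413) and from 2444 to 3062 in DUKsi (median 2841). The lines overlapped, and FL1 was lower in 30 of 36 pairs of pools. The mean was 2438 ± 250 in FL1 against 2780 ± 255 in DUKsi (SD, n = 6), which gave a log2 fold change of -0.19 (SE 0.0798, 95% confidence interval -0.36 to -0.02) and a limma adjusted p of 0.191. With the actin ratio as a covariate this was -0.30, with an adjusted p of 0.0400. The other Ptch1 probe set, 1450824_at, ranged from 22.4 to 109 in FL1 and from 26.1 to 123 in DUKsi, with a log2 fold change of -0.15 (SE 0.399, limma adjusted p = 0.878). Its ranges were nearly the same in both lines, and its direction turned when single pools were left out.

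Gli1 encodes the transcription factor whose own transcript is the usual readout of hedgehog activity. Its signals ranged from 234 to 326 in FL1 (median 305) and from 299 to 420 in DUKsi (median 355). The lines overlapped, and FL1 was again lower in 30 of 36 pairs of pools. The mean was 294 ± 36.3 in FL1 against 353 ± 46.4 in DUKsi (SD, n = 6), and the log2 fold change was -0.26 (SE 0.114, 95% confidence interval -0.51 to -0.02, limma adjusted p = 0.209).

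Hhip encodes a surface protein that binds hedgehog ligands and holds them from Ptch1. In probe set 1421426_at the FL1 pools lay between 79.0 and 131.5 (median 105) and the DUKsi pools between 99.5 and 180.0 (median 145). The lines overlapped, with FL1 lower in 32 of 36 pairs. By mean signal, both Hhip probe sets lay in the dimmest 40% of the array. The mean was 105 ± 18.7 in FL1 against 140 ± 28.3 in DUKsi (SD, n = 6), and the log2 fold change was -0.41 (SE 0.176, 95% confidence interval -0.78 to -0.03, limma adjusted p = 0.206). The dimmer probe set 1438083_at ranged from 36.2 to 72.7 in FL1 and from 50.8 to 86.8 in DUKsi, with a log2 fold change of -0.37 and a limma adjusted p of 0.399.

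For the 3 hedgehog targets the confidence intervals of the probe set with the higher signal thus lay below 0, but none passed the test over all probe sets. Their upper limits were close to 0, and the median over all probe sets was itself -0.07. With arrays scaled to the same median, Ptch1, Gli1 and Hhip had -0.10, -0.18 and -0.32, and after quantile normalization -0.25, -0.20 and -0.28. Ptch1 and Gli1 varied together with r = 0.64 (permutation p = 0.0375, adjusted p = 0.150) and rho = 0.65 (permutation p = 0.0343, adjusted p = 0.137), which did not pass the correction. Without the 2 pools farthest from the median of Ptch1, r was 0.54. Within the lines r was 0.41 in FL1 (exact permutation p = 0.414) and 0.89 in DUKsi (exact permutation p = 0.0306). The actin ratio had an r of 0.78 with Ptch1 and of 0.67 with Gli1 in FL1 (rho 0.60 and 0.71), and of -0.44 and -0.68 in DUKsi (rho -0.37 and -0.60). None of these passed the correction over 26 relations of member probe sets to the actin ratio (adjusted exact permutation p from 0.674 to 0.956). Without the 2 pools farthest from the median actin ratio, r was -0.08 for Ptch1 and 0.68 for Gli1 in FL1, and -0.50 and -0.34 in DUKsi. The part of the actin ratio in the relation of Ptch1 to Gli1 was not tested. Left without FL1 pool 1, the pair reached r = 0.83 with an adjusted permutation p of 0.0163. Hhip was not related to Ptch1 (r = -0.12, rho = -0.06) or to Gli1 (r = 0.13, rho = 0.06), with adjusted permutation p values of 0.802 for r and 0.875 for rho. Gli1 and Cyp17a1 had r = -0.16 and rho = -0.14 with the same adjusted p values. Within the lines their r was 0.60 in FL1 (exact permutation p = 0.212) and -0.71 in DUKsi (exact permutation p = 0.168), and this difference was not tested.

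**Figure D3:**
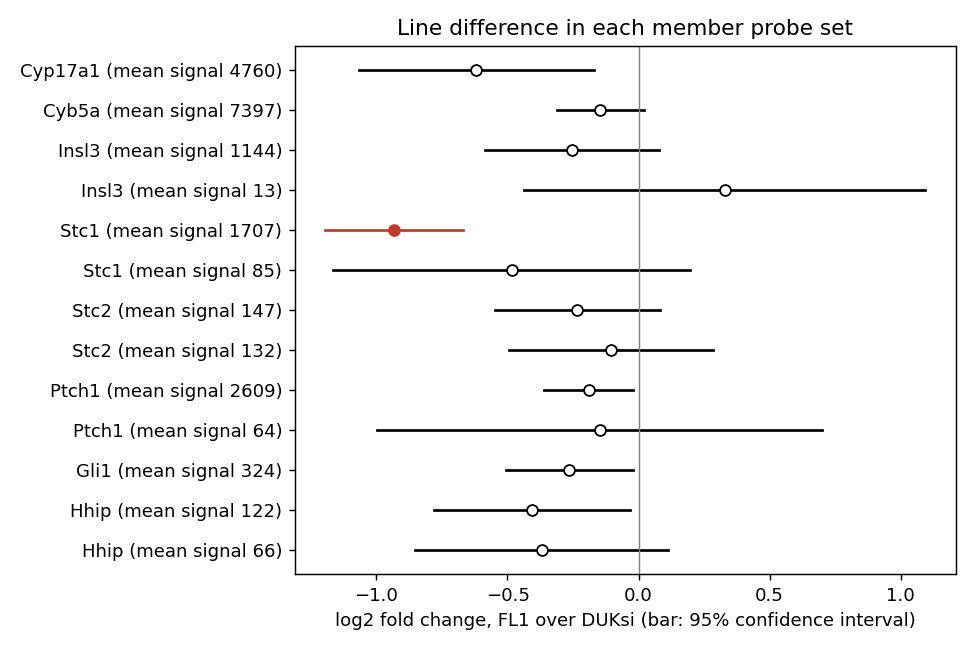
Log2 fold change, FL1 over DUKsi, of the 13 member probe sets with 95% confidence intervals from the fit; the filled red point passed the test at an adjusted p under 0.01. Stc1 at -0.93 is the filled point, 12 of 13 points lie left of 0, and the dim probe sets have the widest intervals.

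Promoters of hedgehog genes and of Insl3 are shown as context, since Gli proteins and steroidogenic regulators act on their targets through DNA sites of this kind. RefSeq promoters on GRCm38.p6 were given for 4 of 8 members, namely Insl3, Stc2, Ptch1 and Hhip, and for the ligand gene Ihh. The 250 bases before the annotated start are written 5' to 3' on the strand of the gene, for Ihh at chr1:74951673-74951922 (minus strand), Ptch1 at chr13:63565736-63565985 (minus strand), Hhip at chr8:80058009-80058258 (minus strand) and Insl3 at chr8:71689002-71689251 (plus strand). Capitals in Hhip mark a cAMP response element.
Ihh: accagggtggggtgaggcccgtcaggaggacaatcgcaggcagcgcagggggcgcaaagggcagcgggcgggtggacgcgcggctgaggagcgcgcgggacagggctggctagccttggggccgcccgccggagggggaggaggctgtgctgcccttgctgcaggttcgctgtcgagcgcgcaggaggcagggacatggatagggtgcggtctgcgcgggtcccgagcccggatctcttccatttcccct
Ptch1: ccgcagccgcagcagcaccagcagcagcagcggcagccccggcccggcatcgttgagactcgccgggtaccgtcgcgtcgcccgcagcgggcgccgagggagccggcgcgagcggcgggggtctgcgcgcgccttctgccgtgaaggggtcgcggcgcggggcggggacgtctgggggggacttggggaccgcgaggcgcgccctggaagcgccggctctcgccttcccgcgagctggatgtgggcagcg
Hhip: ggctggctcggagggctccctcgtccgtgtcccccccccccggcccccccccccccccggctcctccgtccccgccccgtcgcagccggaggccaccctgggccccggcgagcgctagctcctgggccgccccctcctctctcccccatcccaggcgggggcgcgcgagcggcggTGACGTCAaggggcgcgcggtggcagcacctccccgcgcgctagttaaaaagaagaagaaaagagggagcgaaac
Insl3: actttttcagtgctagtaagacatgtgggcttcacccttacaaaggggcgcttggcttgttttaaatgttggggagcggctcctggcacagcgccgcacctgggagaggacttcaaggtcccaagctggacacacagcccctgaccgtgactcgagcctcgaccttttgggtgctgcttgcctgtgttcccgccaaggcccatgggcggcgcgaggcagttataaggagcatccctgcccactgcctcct

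The letters searched on both strands were GACCACCCA for the Gli site, TGACGTCA for the cAMP response element, AGGTCA for the nuclear receptor half-site and TATAAA for the TATA box, and these do not overlap each other in Hhip. The cAMP response element stood in Hhip, 75 bases before the start, and in 1.55% of 32851 promoters of this length. None of the 4 member promoters held the Gli letters, found in 0.225% of all promoters, nor AGGTCA (14.0%) nor TATAAA (12.4%). The share of G and C was 78.4% in Ptch1, 76.0% in Hhip, 72.0% in Ihh and 59.2% in Insl3. A match describes the sequence, and none of these arrays measured binding.

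The hedgehog ligands lie upstream of Ptch1, Gli1 and Hhip. Ihh, the Indian hedgehog ligand of granulosa cells, ranged from 328 to 505 in FL1 (median 418) and from 608 to 927 in DUKsi (median 703). Its lines did not overlap. The mean was 407 ± 68.9 in FL1 against 724 ± 115 in DUKsi (SD, n = 6), so that Ihh fell to 56.2% of the control, with a log2 fold change of -0.83 (SE 0.124, 95% confidence interval -1.10 to -0.57, limma adjusted p = 0.000476). Ihh also passed in all alternatives run, with an adjusted p between 6.61e-06 and 0.00847. The lowest came from the fit to all 24 arrays, and the next lowest was 0.000327 with dim probe sets left out.

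Dhh, the desert hedgehog ligand, ranged from 228 to 424 in FL1 (median 369) and from 384 to 583 in DUKsi (median 503). Its lines overlapped, and the log2 fold change of -0.50 (SE 0.146) missed the test with a limma adjusted p of 0.0546. With the actin ratio as a covariate it was -0.75 and passed (adjusted p = 0.00753). Shh, the sonic hedgehog ligand, had mean signals of 17.1 in FL1 and 15.0 in DUKsi, below the level of the lowest 20% of signals. Of 5 measured genes for ligands and their release, 1 fell and 4 did not pass, with a median log2 fold change of -0.14.

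None of 4 measured hedgehog receptors and co-receptors and none of 10 measured signal transducers passed the test, with medians of -0.16 and -0.03. By limma, 1 of these receptors and 2 of these transducers lay at an unadjusted p under 0.05, and the methods' t-test, adjusted in the same way, also called none. Smo, which carries the signal across the membrane, had a log2 fold change of -0.07 (95% confidence interval -0.23 to 0.08). Gas1, a co-receptor, had 0.18, and Boc, another, had -0.25. Among the transducers, the casein kinase Csnk1a1 and the ubiquitin ligase part Fbxw11 had log2 fold changes of -0.09 and 0.01.

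Of 9 measured partners of Cyp17a1 and Cyb5a in androgen synthesis, 2 rose, none fell and 7 did not pass, with a median of 0.18 and 3 fitted values below 0. Cyp11a1, which cuts the cholesterol side chain in theca and luteal cells, rose from 5762 ± 1422 in DUKsi to 11047 ± 895 in FL1 (SD, n = 6; log2 fold change 0.98, limma adjusted p = 0.000376). Fdx1, the ferredoxin that feeds electrons to it, rose from 11564 ± 1898 to 15980 ± 510 (SD, n = 6; 0.48 on the log2 scale, limma adjusted p = 0.00590). The Fdx1 call was lost in 14 of 28 alternatives. Star, the cholesterol carrier, had a log2 fold change of 1.59 with a limma adjusted p of 0.0333, and Hsd3b1 had 0.26 with 0.0240.

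**Figure D4:**
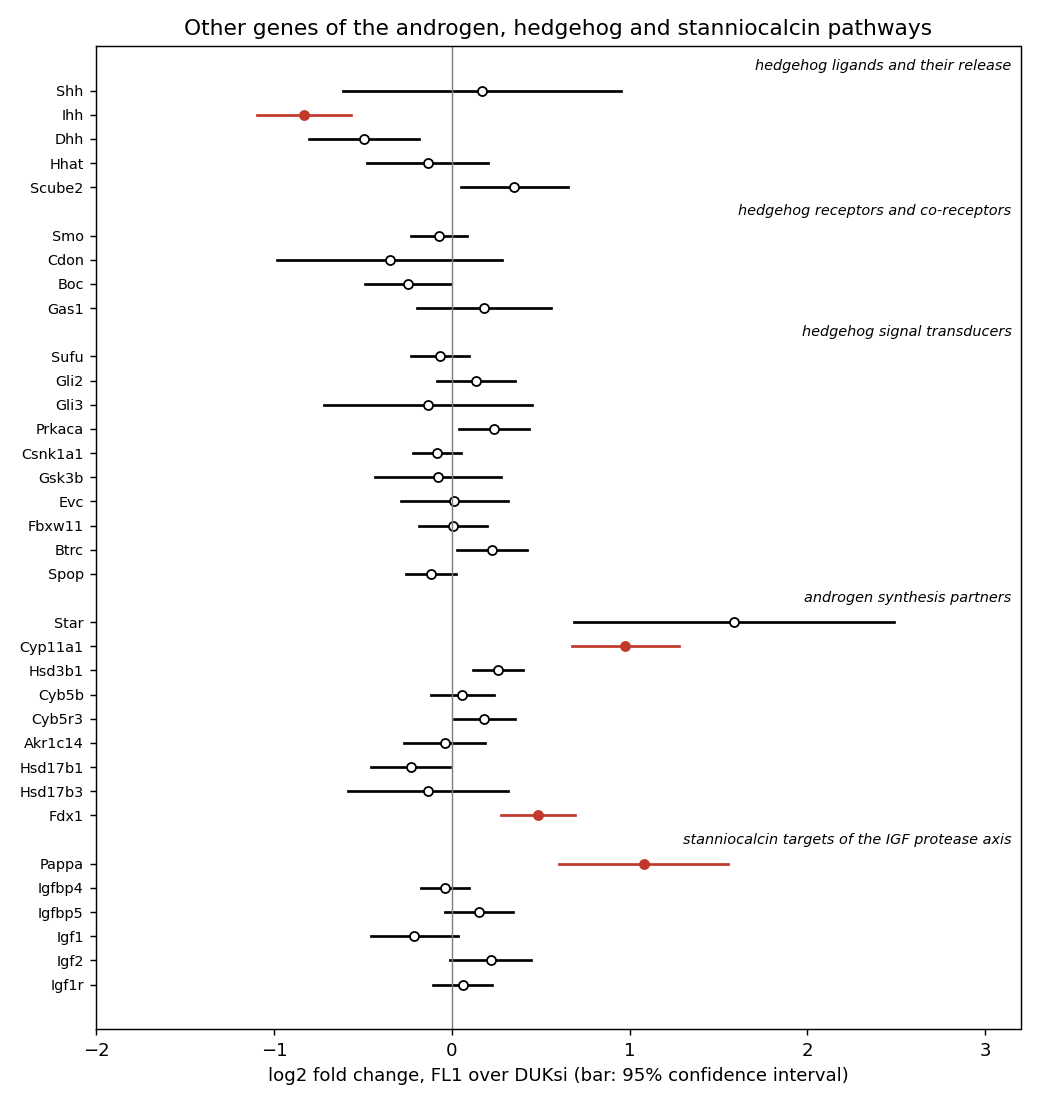
Log2 fold change, FL1 over DUKsi, with 95% confidence intervals, of the other measured genes of the hedgehog, androgen and stanniocalcin pathways; filled red points passed the test. Ihh lies at -0.83, while Cyp11a1 at 0.98, Fdx1 at 0.48 and Pappa at 1.08 lie on the other side of 0; the Fdx1 and Pappa calls were lost in some alternatives.

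By the brightest probe set of each gene, none of 16 theca regulators and markers rose, 2 fell and 14 did not pass. The median was -0.22, and 12 of 16 fitted values were below 0. At an unadjusted p under 0.05 there were 7 of the 16. The genes with fitted values above 0 were Enpep (0.02), Bmp7 (0.02), Tcf21 (0.12) and Wt1 (0.12). A dimmer probe set of Kitl, not counted here, fell (-0.69, limma adjusted p = 0.000646), while the other Kitl probe sets did not pass. Nr5a1, the nuclear receptor that drives steroidogenic genes, fell from 2252 ± 267 in DUKsi to 1553 ± 117 in FL1 (SD, n = 6; log2 fold change -0.53, limma adjusted p = 0.000569). This was lost with the first array of each pool alone (-0.40, adjusted p = 0.0857). Aldh1a1, a retinaldehyde dehydrogenase of the theca layer, fell from 10205 ± 894 to 7093 ± 311 (SD, n = 6; -0.52 on the log2 scale, limma adjusted p = 9.08e-05). The signals of the 16 genes summed to between 22043 and 23805 in the FL1 pools and to between 26356 and 30409 in the DUKsi pools. Without Aldh1a1 the other 15 genes summed to between 15205 and 16515 and to between 16924 and 19375. The list holds Gdf9, which is also among the oocyte markers. In whole ovaries, the number of theca cells, the RNA per theca cell and the share of RNA from other cells cannot be told apart. None of these was tested.

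Downstream of the hormones, 3 genes for the receptors and partners of INSL3, relaxin and androgens were measured, and none passed the limma test (median -0.23), with 1 at an unadjusted p under 0.05 and none by the methods' t-test. Rxfp2, the receptor of Insl3, had mean signals of 61.5 in FL1 and 70.7 in DUKsi with a log2 fold change of -0.23, and Shbg, which binds sex steroids, had -0.46 with a limma adjusted p of 0.0643. In the protease axis of the stanniocalcins, 1 of 6 measured genes rose and 5 did not pass (median 0.11). Pappa, the protease that stanniocalcins block, ranged from 159 to 255 in FL1 (median 180) and from 58.5 to 135 in DUKsi (median 90.2), without overlap. Its log2 fold change was 1.08 (SE 0.223, limma adjusted p = 0.00687), and the call was lost in 16 of 27 alternatives, where the adjusted p rose to at most 0.0588. Igfbp4, the binding protein cut by Pappa, had -0.04, and Igf1 had -0.21 with a limma adjusted p of 0.336.

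Markers of other cells of the ovary moved between the lines as well, and their part in the member values was not tested. The summed signal of 9 luteal markers was 69055 to 79169 in FL1 against 36155 to 54084 in DUKsi. By the brightest probe set of each gene, 5 of the 9 rose and none fell, with a median of 0.98. These were Ptgfr (1.82), Hsd17b7 (1.78), Cyp11a1, Idh1 (0.95) and Fdx1, and Star, Cyp11a1, Hsd3b1 and Fdx1 are also counted among the androgen partners. The Ptgfr call was lost in 8 of 28 alternatives, with an adjusted p of at most 0.0352. Of 8 granulosa markers, by the brightest probe set of each gene, Inhba fell (-0.52, limma adjusted p = 0.000646) and 7 did not pass (median -0.24). Their summed signals were 31833 to 37905 in FL1 and 37880 to 43506 in DUKsi. Among these 7 genes, a dimmer probe set of Inhbb fell (-0.69, limma adjusted p = 0.00114). So did a dimmer probe set of Nr5a2 (-0.64, limma adjusted p = 0.000288), while the other Nr5a2 probe sets did not pass. Of 10 oocyte markers, Zp3 fell (-0.49, limma adjusted p = 0.00106, lost in 2 of 28 alternatives) and 9 did not pass (median -0.28), with sums of 6866 to 9253 and 8987 to 11171.

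Stroma markers gave 1 of 10 that rose, Pdgfra (0.37, a call lost in 16 of 28 alternatives with an adjusted p of at most 0.0509), with a median of 0.07 and overlapping sums of 45805 to 56811 and 46985 to 56616. None of 8 smooth muscle and theca externa markers (median 0.02) and none of 8 macrophage markers (median 0.17) passed the limma test or the methods' t-test, with 2 of each list at an unadjusted p under 0.05. Of 8 endothelial markers, Pecam1 rose (0.58, a call lost in 17 of 28 alternatives with an adjusted p of at most 0.136) and 7 did not pass (median 0.15). The granulosa genes Amh, Inha and Fshr and the oocyte genes Zp3, Gdf9 and Bmp15 were all measured well above the lowest signals. Of markers from outside the ovary, none of 3 adrenal genes passed the limma test, none lay at an unadjusted p under 0.05 and none passed the methods' t-test (median -0.22, sums of 266 to 438 and 323 to 479). A further list mixes markers of fat and oviduct with those of the surface epithelium, which is part of the ovary. Of its 8 measured genes, Upk3b rose (1.29) and 7 did not pass (median 0.10). Single pools varied widely, with Ovgp1 from 205 to 3462 in DUKsi (DUKsi pool 4 the highest) and Adipoq from 22.9 to 961 in FL1.

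For each member, the genes whose pool-to-pool deviations were most like its own were looked up among 10419 bright probe sets of a single gene, with Pearson's r over the 12 pools as the measure of likeness. Cyp17a1 was most like Smoc2 (r = 0.94), Acvr1b (0.91) and Itih2 (0.89), and Insl3 was most like Smoc2 (0.90), Cyp17a1 (0.83) and Heph (0.83). Smoc2 thus headed the lists of both theca genes, while no other gene stood on more than 1 list. Stc1 was most like Vldlr (0.94), Pacc1 (0.88) and Sirt3 (0.86), and Stc2 was most like Tlnrd1 (0.86), Themis2 (0.86) and Ampd3 (0.84). Ptch1 was most like Fancf (0.97), Pttg1 (0.96) and Dtnb (0.95), Gli1 like Srm (0.94), Rpl27 (0.92) and Nup160 (0.91), and Hhip like Samhd1 (0.88), Emp1 (0.87) and 4921524J17Rik (0.86). Cyb5a was most like Dctn4 (0.97), Rpl35 (0.96) and Hspa4 (0.93). These are the highest of many values, so no test goes with them. Among these genes the line difference itself passed the test in Heph (-0.77), Fancf (-0.83) and Samhd1 (1.15).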

How the data were processed

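The authors had hybridized RNA of 6 ovary pools per line to 24 MOE 430A arrays, 2 per pool, and deposited intensity values computed with MAS5 (Microarray Suite by the methods; no version is given in the labels) and scaled to a common level. On each array the mean of these signals, with the lowest and highest 2% left out, was 500.1. No pair of arrays was identical, and the arrays of a pool correlated with r between 0.971 and 0.988. Probe sets were named from the platform annotation, in which 20380 carry 1 gene, 691 several and 1555 none, and only single-gene probe sets were used outside Insl3. A genome build for the arrays is not given in the sources used here (promoters come from a separate RefSeq table on GRCm38.p6), and scanner files were not used here.

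The signals of a pool's arrays were averaged, and log2 values of 12 pools were fitted in R 4.3.3 with limma 3.58.1 (lmFit, eBayes with a mean-variance trend), with Benjamini-Hochberg adjustment over 22626 probe sets and without the 64 array controls. Permutation tests (scipy 1.17.1) were two-sided and exact, or used 100000 resamples within lines for correlations over 12 pools. The scripts were tested on simulated data. For a gene with several probe sets the brightest one annotated to that gene alone was used for counts of list genes and for pairs. The number of arrays limits the precision.

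Named were every member probe set, in each of 16 gene lists every gene past the test (up to 6, or up to 2 of the highest signal where none passed), and 3 genes most like each member. Not all of these are reported. Other genes of the pathways, and further probe sets of some list genes, were named after their values were seen. Members and lists were chosen with earlier results of these data known. Alternatives covered single arrays, arrays as blocks, normalization, low signals, the t-test that the methods name (run here as a two-sample test with equal variance on linear or log2 signals, with Benjamini-Hochberg adjustment; the methods state neither the variance nor the scale, and used Q values), limma settings, the pool number as a block, the threshold and each pool left out. Chosen after the data were seen were the actin ratio as a covariate and leaving out FL1 pool 3 and DUKsi pool 4 together.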

Additional observations from a re-analysis of the deposited data

Results flagged for a closer look

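Among 56 sets of 6 pools examined, 2 held a pool whose distance from the nearest of the others, divided by the whole range, was above Dixon's critical value at 95%, and chance gives about 1 in 20. Insl3 (1423021_s_at) had a signal of 1552 in FL1 pool 5, against 1055 in the next FL1 pool and 778 in the lowest (ratio 0.643). The same pool had the highest Cyp17a1 signal of FL1, 5365. Stc2 (1419503_at) had a signal of 148 in FL1 pool 2, against 122 in the next and 119 in the lowest (ratio 0.888).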

How the results depend on the processing

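Over 28 alternatives, 348 of 357 values of member probe sets kept their direction and their side of the threshold. Stc1 (1450448_at) passed in every alternative, with log2 fold changes from -1.02 to -0.77 and adjusted p values from 1.65e-07 to 0.00450. The 1.65e-07 came from the fit to all 24 arrays, and the next lowest was 9.42e-05 without FL1 pool 2. The count of members past the test was 1 throughout and 1 to 1 with a pool left out, except 2 with the actin ratio as a covariate, where Cyb5a joined. Reversed were dim probe sets: Stc1 1421984_at with the first arrays (0.33), Stc2 1419503_at with the first arrays (0.074) and after quantile normalization (0.0078), and Ptch1 1450824_at without FL1 pool 3 (0.10), DUKsi pool 1 (0.06) or DUKsi pool 2 (0.02; -0.39 to 0.10 over all single pools left out), without FL1 pool 3 and DUKsi pool 4 (0.0021) and with the actin covariate (0.59), and the cause was not tested. Of the list genes, 14 passed, against 22 with 24 arrays and the pool as a random block, 9 by the methods' t-test on log2 signals, 9 without the trend, 23 at an adjusted p under 0.05 and 9 to 16 with a pool left out (9 without FL1 pool 4 or 6). With a ratio of at least 1.5 asked for as well, 524 of all probe sets were called, against 335 by that t-test on linear values and 431 to 614 with a pool left out. Correlated pairs of members numbered 1, against 0 with the second arrays and 0 to 2 with a pool left out (2 without FL1 pool 1, 0 without FL1 pool 5). Pairs that differed between lines numbered 0, against 1 with a constant added and 0 to 1 with a pool left out. Same-numbered pools of the lines correlated with r from -0.26 to 0.17, and no pool had its own number as its best partner, so the numbers pair no samples. With the pool number as a replicate block 461 probe sets were called under the same rule, 1 member passed and 14 list genes passed. Dim probe sets limit what can be read of Stc2 and Hhip.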
